A study of Caenorhabditis elegans with 3 samples.

Results

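The Wnt ligands and the Frizzled receptors of the nematode Caenorhabditis elegans were followed across 3 arrays. The members are the 5 Wnt ligand genes mom-2, cwn-1, cwn-2, egl-20 and lin-44 and the 4 Frizzled receptor genes lin-17, mig-1, mom-5 and cfz-2. They were taken by gene symbol in the platform annotation and are 9 of 17118 measured genes, read by 13 probe sets. Wild-type hermaphrodites, 3 days old and called young adults in the labels, were incubated in a salt medium without food at 20 °C. The incubation lasted 24 h by the protocol that the 3 samples share. The groups were worms exposed to GO, worms exposed to rGO and control worms. The labels do not spell these names out; the study is known to have used graphene oxide (GO) and its reduced form (rGO), in which part of the oxygen groups has been removed. No source used here gives the concentration. All 3 groups, the control included, were without food during the incubation, and RNA came from whole worms.

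Each group had 1 array, so there is no spread between replicates. There are hence no p-values and no standard errors, and "higher" and "lower" compare single arrays. In bulk RNA of whole worms, fewer cells of a type and less RNA per cell cannot be told apart. Values are deposited log2 expression values, and 1 unit of difference is 2-fold. Levels are compared between arrays for 1 gene and not between genes, because probe sets differ in brightness. A gene entered a comparison when its brighter array reached 6.79, called the floor here, which is the median over all genes and arrays. The brightest of 8 probe sets with no expected target had a log2 value of 6.24, and folds against a dimmer array are given as "at least".

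Wnt ligands are secreted, lipid-modified proteins that bind Frizzled receptors, which are membrane proteins with a cysteine-rich extracellular domain. The signal passes through Dishevelled to beta-catenins and the TCF factor POP-1, or to the cytoskeleton. In C. elegans the pathway orients asymmetric cell divisions, positions migrating neuroblasts and their processes, and specifies fates in the embryo, the vulva and the tail.

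On the GO array 2 ligands and 1 receptor, cwn-1, cwn-2 and cfz-2, were 3.48-fold to 3.80-fold higher than on the control array. On the rGO array the same 3 genes were within 0.50 log2 units of the control. The receptors lin-17 and mig-1 were higher on the GO array by less than 2-fold, and the gene values of mom-2 and mom-5 differed by at most 0.10 units between these arrays. The ligands egl-20 and lin-44 were under the floor on all 3 arrays. Of the 7 members over the floor for GO minus control, 6 had a positive difference, none was negative and mom-2 was equal. Of all 9303 genes over it, 4889 were positive and 3605 negative. For GO minus rGO all 7 were positive, beside 3725 positive and 4318 negative of 8978 genes. The probe sets of mom-5 disagreed in sign for GO minus control, and cwn-2 passed the floor through the GO array alone.

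**Figure D1:**
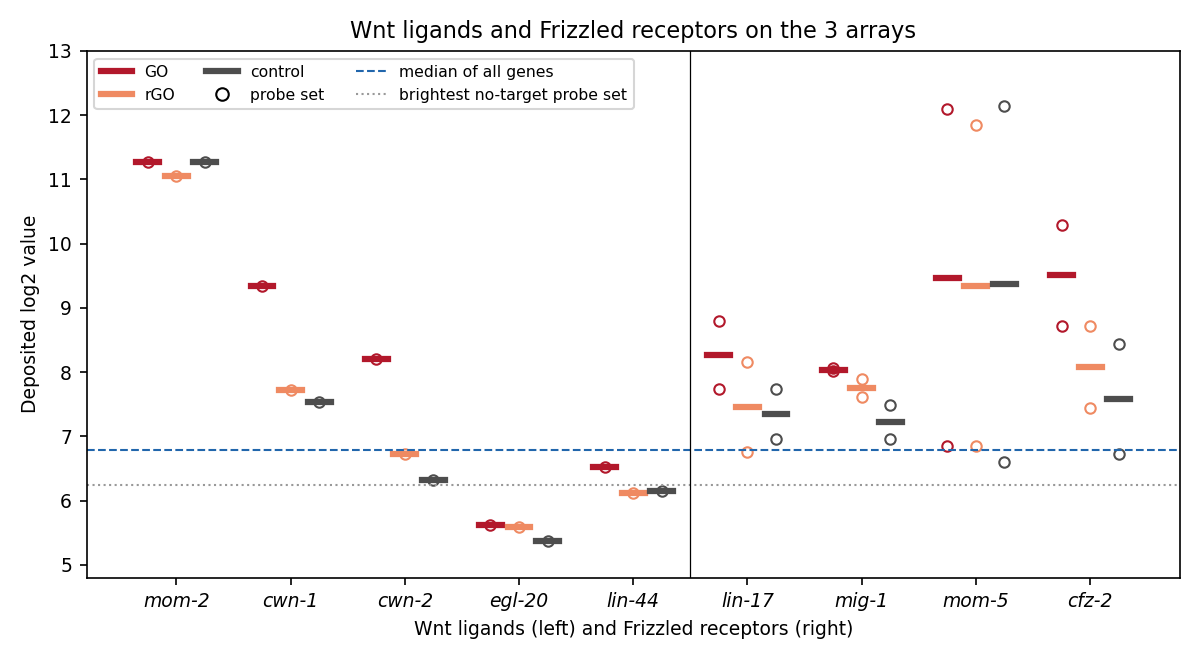
Deposited log2 value (vertical axis) of each Wnt ligand and Frizzled receptor on the GO, rGO and control arrays. Open circles are probe sets, bars are gene means, the dashed line is the floor of 6.79 and the dotted line the brightest no-target probe set at 6.24. The GO bars of cwn-1, cwn-2 and cfz-2 stand apart from their rGO and control bars, while those of mom-2 and of mom-5 lie within 0.21 units of each other.

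Among the ligands, cwn-1, a Wnt made mainly in posterior cells including body wall muscle, had log2 values of 9.33 on the GO array, 7.72 on the rGO array and 7.54 on the control array. The GO value stood apart, with the rGO and control values close together. The difference was 1.80 (3.48-fold) for GO minus control, above that of 97.4% of genes over the floor. With rGO it was 0.18, above 60.4% of genes. The GO array exceeded the rGO array by 1.62 (3.06-fold).

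The ligand cwn-2, which acts in neuronal migration and in the placement of the nerve ring and neurites, had log2 values of 8.21 on the GO array, 6.73 on the rGO array and 6.32 on the control array. Again the GO array was apart from the other 2. GO minus control was 1.89 (3.70-fold), GO minus rGO was 1.48 (2.80-fold) and rGO minus control was 0.40 (1.32-fold). The rGO and control values lay just under the floor, so cwn-2 entered through the GO array alone and, once counted, had to be higher there. The control value was only just above the no-target level of 6.24. Both cwn-1 and cwn-2 are read by 1 probe set each, and the maker's naming marks both as sharing probes between transcripts.

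The ligand mom-2, which signals between blastomeres of the early embryo and is supplied by the mother, had log2 values of 11.26 on the GO array, 11.05 on the rGO array and 11.26 on the control array. GO minus control was 0.00 and rGO minus control was -0.21. The summary of probes on so few arrays often returns identical values: 20.4% of single-gene probe sets were equal on the GO and control arrays, so 0.00 here says that the summary did not separate the arrays.

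The tail ligands were dim. The ligand egl-20, made by cells around the anus and known for directing the left Q neuroblast, had log2 values of 5.62 on the GO array, 5.59 on the rGO array and 5.37 on the control array. All 3 were below 6.24, so no fold is given. The ligand lin-44, secreted by tail epidermal cells, had log2 values of 6.53 on the GO array, 6.13 on the rGO array and 6.15 on the control array. Only the GO value exceeded 6.24, which bounds the fold at no less than 1.22 against either of the other arrays, and the gene did not reach the floor.

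Among the receptors, cfz-2, a Frizzled of neuronal migration, had log2 values of 9.51 on the GO array, 8.08 on the rGO array and 7.58 on the control array. GO minus control was 1.92 (3.80-fold), the largest difference of the 9 genes in that comparison. GO minus rGO was 1.43 (2.69-fold) and rGO minus control 0.50 (1.41-fold). The gene has 2 probe sets, and both showed the GO excess: 1.86 and 1.99 over control and 1.58 and 1.27 over rGO. Over control, rGO gave 0.27 and 0.72 in these probe sets.

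The receptor lin-17, needed for the polarity of asymmetric divisions such as that of the tail T cell, had log2 values of 8.27 on the GO array, 7.46 on the rGO array and 7.35 on the control array. GO minus control was 0.92 (1.89-fold), above 90.2% of genes, and GO minus rGO was 0.81 (1.75-fold). The gene was under 2-fold by its mean. Its probe set with unshared probes reached 1.06 over control and the other 0.77. For rGO minus control these gave 0.42 and -0.21, so the direction was not settled, and the gene mean was 0.11.

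The receptor mig-1, which acts in Q neuroblast migration, had log2 values of 8.04 on the GO array, 7.75 on the rGO array and 7.23 on the control array. It was the receptor with the largest rGO minus control value, 0.52 (1.44-fold), and GO minus control was 0.81 (1.75-fold). Its 2 probe sets disagreed for rGO, at 0.92 and 0.12. For GO they gave 1.05 and 0.57.

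The receptor mom-5, the Frizzled of the early embryo that acts with mom-2 in endoderm specification, had gene means of 9.47 on the GO array, 9.35 on the rGO array and 9.37 on the control array. The 3 values were within 0.12 units. This mean joins probe sets of very different brightness, 1 at 12.09 and 1 at 6.85 on the GO array. Their GO minus control values were -0.05 and 0.25, and their rGO minus control values -0.29 and 0.25, of opposite sign in both comparisons.

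The ligand mom-2 and the receptor mom-5, which function together in the early embryo, thus differed by 0.21 units or less between any 2 arrays by their gene values. The 20 oocyte and early embryo markers lay on both sides of 0 and had a median difference of 0.04 for GO minus control, with 10 positive and 8 negative. With rGO their median was 0.05, with 10 positive and 9 negative.

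Counted over the members, 7 of 9 passed the floor for GO minus control, of which 3 were at least 2-fold higher and none lower. Of all 9303 genes over the floor, 8.43% were higher by this rule and 9.76% were lower. The median over all 9 members was 0.81, beside 0.00 over all 17118 genes. For rGO minus control, 6 members passed and none was 2-fold different in either direction, against 7.99% of 9097 genes higher and 9.88% lower, and the median over 9 members was 0.18. For GO minus rGO, 7 members passed, with 3 at least 2-fold higher and none lower, against 5.59% of 8978 genes higher and 3.73% lower, and the median over 9 members was 0.40. By a 1.5-fold rule 5 of 7 members were higher and none lower for GO minus control, against 17.8% and 15% of all genes. By that rule none of 6 differed for rGO minus control, against 19.1% higher and 16.1% lower, and 4 of 7 were higher and none lower for GO minus rGO, against 10.6% and 10% of all genes. The comparisons share arrays, so the 3 genes counted for GO minus control and those counted for GO minus rGO, which are the same, rest on the same GO array. By class, the median over the 5 ligands was 0.38 and over the 4 receptors 0.86 for GO minus control. The ligand median is the value of lin-44, a gene under the floor. Over the 3 ligands past the floor the median was 1.80, with cwn-2 entering through the GO array alone. The order of the classes hence depends on the floor.

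**Figure D2:**
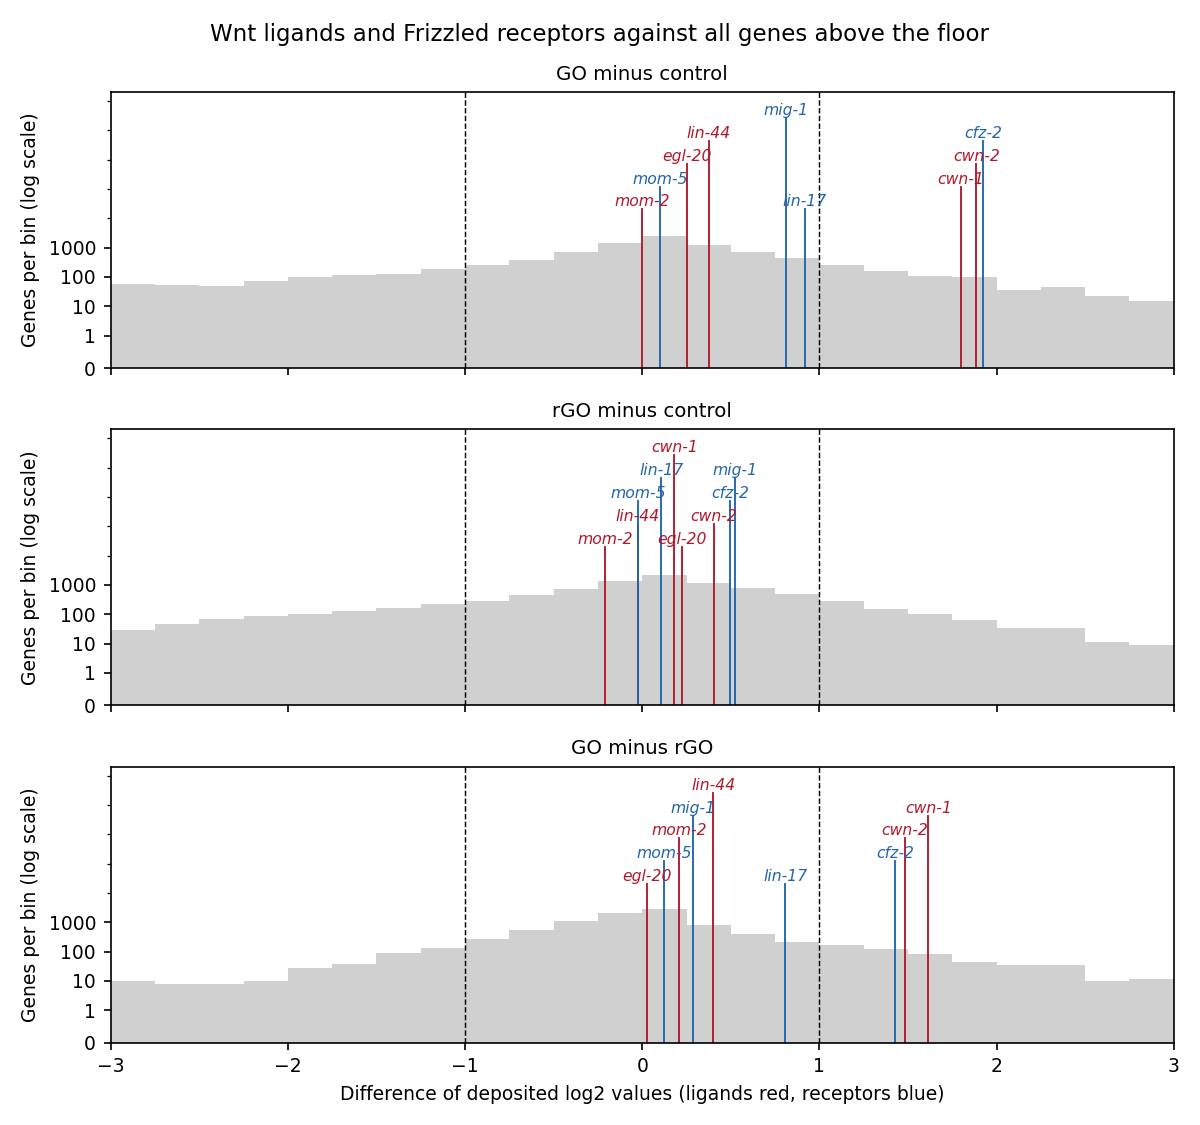
Difference of log2 values (horizontal axis, drawn from -3 to 3) against the number of genes per bin of 0.25 (vertical axis, log scale) for all genes above the floor, with lines at the Wnt ligands (red) and Frizzled receptors (blue); dashed lines mark 2-fold. In the panels for GO minus control and GO minus rGO, cwn-1, cwn-2 and cfz-2 lie beyond the 2-fold line, and for rGO minus control all 9 lie between -0.21 and 0.52. Line heights carry no value.

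The profiles of the 3 genes with a GO excess were set beside those of all genes. Likeness among these 3 is given as a description only, since passing 2-fold in the same comparisons largely fixes it. It was measured as the Euclidean distance between the 3 array values of 2 genes, each centred on its own mean, over 9454 genes above the floor on any array. The receptor cfz-2 was the 10th nearest gene to cwn-2, at a distance of 0.067 log2 units, and cwn-1 was the 29th nearest, at 0.16. The nearest genes to cwn-2 were ZK822.1 (0.012), dsl-3, a gene of the Delta/Serrate ligand family (0.027), and che-14, a Dispatched-related gene of apical secretion (0.031). The nearest to cfz-2 were rocf-1 (0.0075), ptrg-1 (0.028) and clc-6 (0.032). The nearest to cwn-1 were the chitinase-family gene cht-2 (0.036), bus-4 (0.048) and F30H5.3 (0.049). With 3 arrays such a profile has 2 free values, and cht-2, bus-4, ZK822.1, che-14 and rocf-1 were below 6.24 on the rGO and control arrays, so their distances, and the ranks counted over such genes, are not exact.

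The rest of the pathway was described by 48 other genes in 5 lists by role. For GO minus control 41 passed the floor, with 4 higher and none lower by the 2-fold rule, beside the 8.43% and 9.76% of all genes, and the median over the 48 was 0.17. For rGO minus control 37 passed, with 3 higher and none lower, beside 7.99% and 9.88% of all genes, and a median over the 48 of 0.07. The 3 include ceh-22, whose fold has only a lower bound under 2. For GO minus rGO 41 passed, with 2 higher and none lower, beside 5.59% and 3.73% of all genes, and a median of 0.10. The shares counted as higher were near those of all genes in all 3 comparisons, while none was counted as lower. Of the 4 counted for GO minus control, fmi-1, ceh-22 and mab-5 were under the floor on the control array. They entered through the GO array alone and, once counted, had to be higher there. For rGO minus control fmi-1 and ceh-22 entered through the rGO array alone in the same way.

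Wnt secretion and trafficking genes were all under 2-fold in all 3 comparisons, 9 of 9 above the floor. Wntless (mig-14), the carrier that brings Wnts to the cell surface, had log2 values of 9.85 on the GO array, 9.53 on the rGO array and 9.94 on the control array. Porcupine (mom-1), the enzyme that attaches the lipid to Wnts, exceeded its control value by 0.57 with GO and by 0.42 with rGO. The myotubularin phosphatase genes mtm-6 and mtm-9 and the retromer gene vps-26, which act in recycling of Wntless, exceeded their control values by 0.58, 0.27 and 0.35 with GO and by 0.66, 0.57 and 0.61 with rGO. The probe sets of vps-26 disagreed for rGO minus control, at 1.27 and -0.04.

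Among 11 other receptors, surface modulators and polarity genes, fmi-1, the Flamingo cadherin of planar polarity and axon guidance, had the largest difference. Its log2 values were 9.49 on the GO array, 7.45 on the rGO array and 6.18 on the control array. The 3 arrays were apart, with rGO between the others. The control value was below 6.24, so the excess of fmi-1 over control was at least 9.49-fold with GO and at least 2.31-fold with rGO. It was 4.11-fold higher on the GO array than on the rGO array. It is read by 1 probe set that shares probes. The Van Gogh gene vang-1 and the Ror kinase cam-1, a Wnt receptor of another family, both exceeded control by 0.87 with GO. With rGO the gene values exceeded it by 0.60 and 0.19, but the probe sets of cam-1 disagreed, at -0.17 and 0.54. The Prickle gene prkl-1 was at least 1.51-fold higher on the GO array by its mean, with the rGO and control means below 6.24. That mean joins 1 probe set at 4.04 on every array and another that exceeded control by 1.93 with GO and by 0.71 with rGO. The syndecan sdn-1, a heparan sulphate proteoglycan, was 0.95 higher on the GO array than on the rGO array, with its probe sets at 1.58 and 0.32. The list's median was 0.62 for GO minus control and 0.19 for rGO minus control.

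Cytoplasmic components differed little. Of 9 above the floor among 11, apr-1, the homologue of the tumour suppressor APC, was the 1 gene past 2-fold, with log2 values of 10.06 on the GO array, 10.27 on the rGO array and 9.25 on the control array. Both exposed arrays were higher than the control, GO by 0.82 (1.76-fold) and rGO by 1.03 (2.04-fold), and after a further quantile normalisation the rGO difference was under 2-fold. The Dishevelled gene dsh-1 was higher by 0.69 on the GO array, and its paralogue dsh-2 by 0.27. The casein kinase kin-19 differed by -0.38 with GO and by 0.19 with rGO, with its probe sets at 0.73 and -0.35 for rGO. The kinase mom-4 differed by -0.25 with GO and by -0.58 with rGO. The medians were 0.01 for GO minus control and 0.07 for rGO minus control. GSK-3 (gsk-3) was below 6.24 on every array.

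The 4 beta-catenin genes were under 2-fold in all 3 comparisons. The beta-catenin of the Frizzled-to-transcription route, bar-1, had log2 values of 8.82 on the GO array, 8.65 on the rGO array and 8.19 on the control array, with GO minus control at 0.63 and rGO minus control at 0.46. The beta-catenin wrm-1, which acts with POP-1 in asymmetric divisions, differed from control by -0.10 with GO and by -0.44 with rGO, and sys-1 by 0.18 and -0.20. For rGO minus control the probe sets of wrm-1 gave -0.88 and 0.00, and those of sys-1 gave -0.40 and 0.00. The adhesion beta-catenin hmp-2 was equal on the GO and control arrays. The TCF gene pop-1 was below 6.24 on every array.

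Of 12 transcription factor genes known as Wnt targets or effectors, 8 passed the floor for GO minus control. By their deposited values 3 were counted as higher and none as lower, beside 8.43% and 9.76% of all genes. Among the 3, ceh-22 and mab-5 passed the floor through the GO array alone and could only be counted as higher. The homeobox gene ceh-22, a gene of the pharynx and of the distal tip cell fate, had log2 values of 7.88 on the GO array, 6.85 on the rGO array and 5.55 on the control array. The GO value was the highest in both of its probe sets. The brighter probe set read 7.73 on the rGO array and was below 6.24 on the control array, and the dimmer one was below 6.24 on both. Against the no-target level the excess over control was at least 3.10-fold for GO and at least 1.53-fold for rGO. The GATA factor elt-6 of the seam cells was higher on the GO array by 1.13 (2.20-fold), with its 2 probe sets at 1.85 and 0.42. The Hox gene mab-5, which EGL-20 signalling turns on in the left Q neuroblast, had log2 values of 7.22 on the GO array, 6.44 on the rGO array and 6.13 on the control array, an excess of at least 1.97-fold for GO, just short of 2-fold as a bound. The Hox gene lin-39 of the mid-body did not reach the floor, and egl-5 was equal on all arrays below 6.24. For rGO minus control ceh-22 alone of 6 was counted, beside 7.99% of all genes higher. It was counted from its deposited values, although the bound of 1.53-fold falls short of 2-fold.

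**Figure D3:**
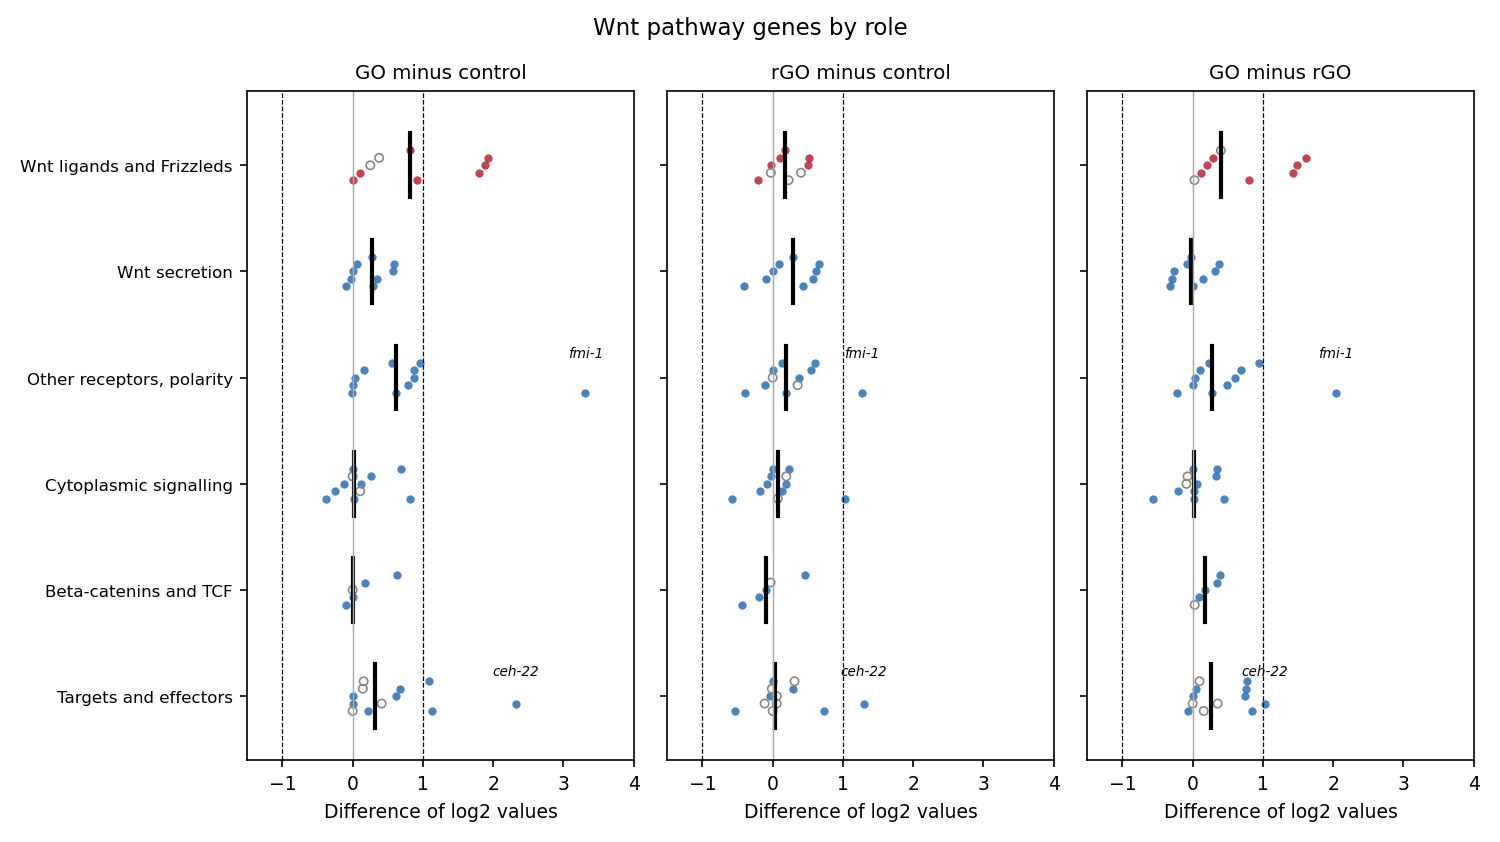
Difference of log2 values (horizontal axis) for the Wnt ligands and Frizzled receptors (red) and for the 48 other pathway genes by role (blue). Open points are genes under the floor, black bars the median over all measured genes of a row, dashed lines 2-fold. Among the 48 other genes the largest differences of deposited values are those of fmi-1 and ceh-22. Secretion genes and beta-catenins stay inside the 2-fold lines.

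The arrays held RNA of all major tissues: 16 of 18 defining markers, among them myo-3 of muscle, rab-3 of neurons and elt-2 of the intestine, were above 6.24 on every array. The exceptions were the sperm genes gsp-3, which was below it on the GO array, and spe-9. Marker lists of tissues differed between the arrays in several directions. Of 17 genes of the embryonic and larval epidermis, 16 passed the floor for GO minus control. Of these, 9 were at least 2-fold higher and none lower, beside 8.43% and 9.76% of all genes. Among the 9, cut-3, nhr-25, fbn-1, sym-1 and mlt-11 were under the floor on the control array. They entered through the GO array alone and, once counted, had to be higher there. For rGO minus control 3 of 14 were at least 2-fold higher, beside 7.99% of all genes, and none lower: cut-3 (at least 5.85-fold), dpy-14 (5.93-fold) and noah-1 (2.12-fold). Here cut-3 entered through the rGO array alone. Over all 17 the median difference was 1.18 for GO minus control and 0.23 for rGO minus control, and the log2 values summed to 151 on the GO array, 130 on the rGO array and 121 on the control array. None was below 6.24 on the GO array, 1 was on the rGO array and 3 on the control array. The genes of this list were higher on the GO array than on the rGO array too, with a median over all 17 of 1.16. Past 2-fold were 9 of 16, beside 5.59% of all genes, with fbn-1 and sym-1 entering through the GO array alone. Outside the list, the defining epidermal markers dpy-7 and col-19 went opposite ways. The values of dpy-7 were 8.58 on the GO array, 6.98 on the rGO array and 7.13 on the control array. Those of col-19 were 7.97, 11.26 and 12.17 in the same order, lowest on the GO array. Any link of these markers to the excess of cwn-1, cwn-2 and cfz-2 on the GO array was not tested.

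Neuron markers, 20 in all, had median differences of 0.53 for GO minus control and 0.55 for rGO minus control. At least 2-fold higher were 6 of 17 above the floor with GO, beside 8.43% of all genes. With rGO 2 of 16 were, beside 7.99%. Among the 6, aex-3, unc-47 and eat-4 entered through the GO array alone and could only be counted as higher. For GO minus rGO the neuron median was 0.18. Pharynx markers, 9 genes with ceh-22 among them, had medians of 0.76 for both exposures. Body wall muscle markers had a median of -0.39 for GO minus control and of 0.05 for rGO minus control. With GO none of 13 was higher by the 2-fold rule and 3 were lower, beside 8.43% and 9.76% of all genes. Intestine markers had medians of -0.05 for GO minus control and -0.0009 for rGO minus control. Of 13, 5 were at least 2-fold lower with GO and 3 with rGO, beside 9.76% and 9.88% of all genes. None was higher by that rule. Sperm markers had medians of -3.11 and -1.86 in these comparisons. The part of these marker lists in the Wnt differences was not tested.

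**Figure D4:**
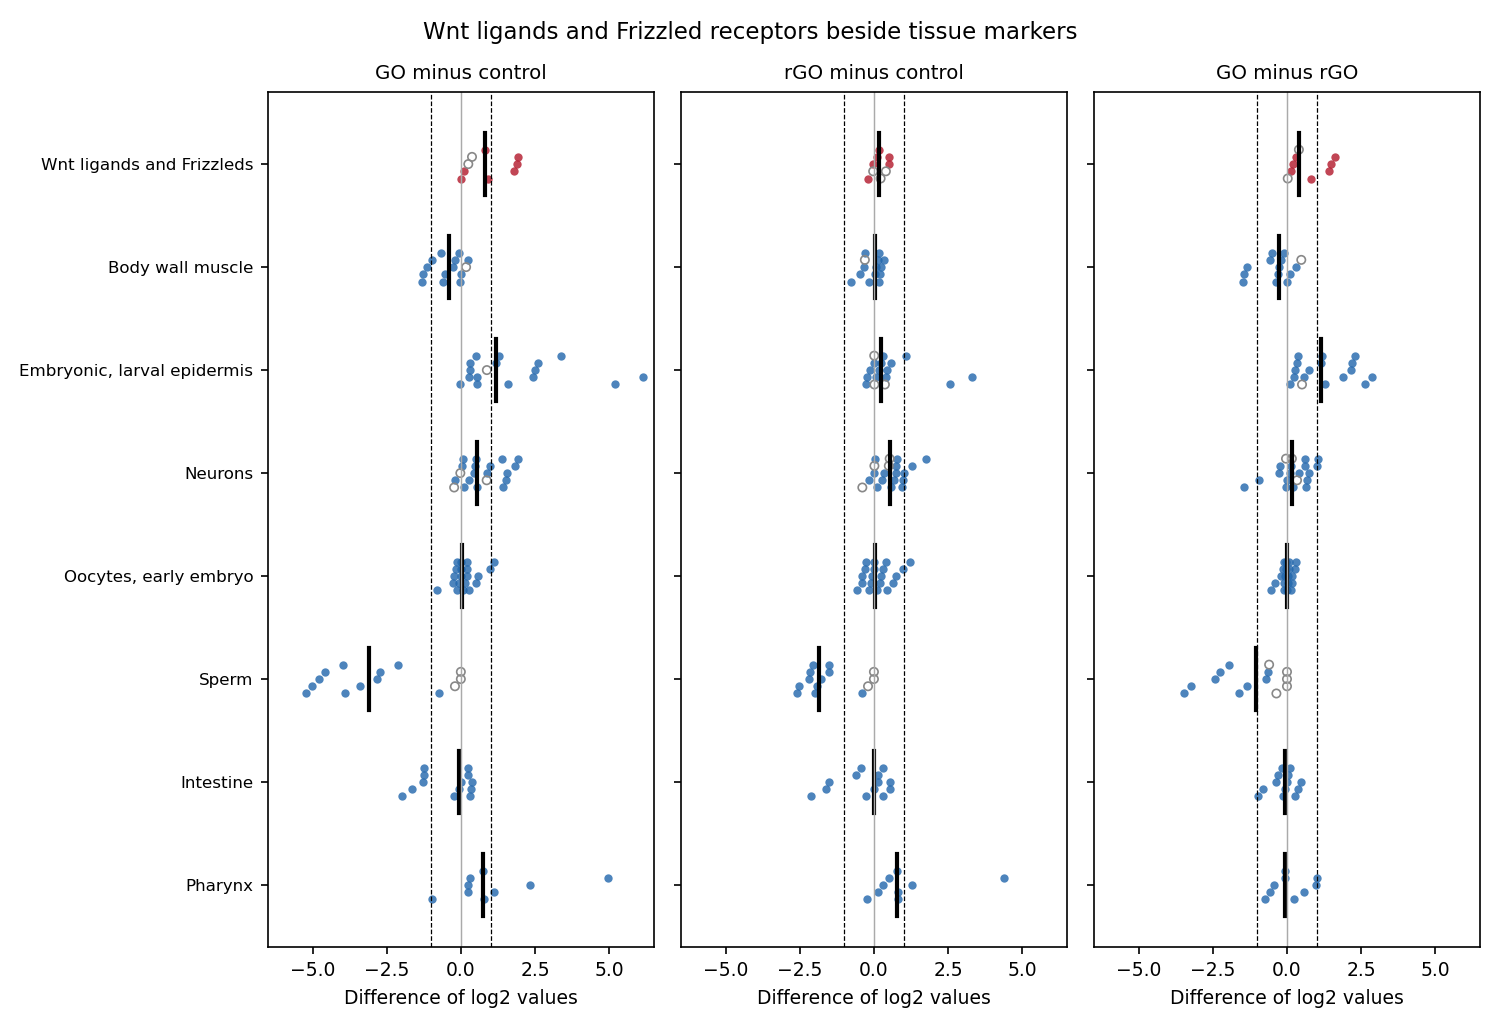
Difference of log2 values (horizontal axis) of the Wnt ligands and Frizzled receptors (red) and of 7 tissue marker lists (blue); open points are genes under the floor, black bars medians over all measured genes of a row, dashed lines 2-fold. Epidermal markers lie to the right for GO minus control and GO minus rGO and have a median of 0.23 for rGO minus control, where cut-3, dpy-14 and noah-1 still lie beyond the 2-fold line. Sperm markers lie to the left, and oocyte and early embryo markers lie around 0.

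Control probe sets also differed between the arrays. All 24 probe sets of the bacterial poly-A transcripts that are spiked into RNA as labelling controls were lower on both exposed arrays, with a median of -1.55 for GO minus control and -0.98 for rGO minus control. The median log2 gap between the 3′ and 5′ ends of 8 worm control pairs was 2.57 on the GO array, 1.16 on the rGO array and 1.88 on the control array. The 18 probe sets for hybridisation controls had medians of -0.62 (GO minus control), -0.93 (rGO minus control) and 0.26 in GO minus rGO, and each was below its control-array value on both exposed arrays. The part of these controls in the differences of the Wnt genes was not tested.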

How the data were processed

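Per the labels' protocols, amplified RNA from 300 ng per sample was biotin-labelled and put on 1 array each. The authors deposited 1 log2 value per probe set and array. RMA, GCOS and Affymetrix Expression Console are named, without versions, per the submitters' processing notes. RMA equalises the arrays' distributions, which hides any change in total RNA per worm.

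Of 22625 probe sets, 20766 carry 1 gene in the platform annotation of 2016. Their symbols were updated through a RefSeq table of assembly WBcel235 (20701 matched), and the probe sets of a gene were averaged (Python 3.11.15, pandas 2.3.3). No coordinates were used, and no sequence of the members is printed, since no table used here holds them. Differences, counts and medians were computed with no test, as each group has 1 array, and the number of arrays limits the precision. The counting step was tested on simulated data.

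Genes with a log2 difference of 1 or more were counted as 2-fold different. All members are named, with the pathway genes past that size, up to 4 others per list and the 3 genes nearest in profile to each member past 2-fold; mig-14, gsk-3, egl-5 and a few others were named after their values were seen. The members, the lists and the alternatives were chosen with earlier results of these data known.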

Additional observations from a re-analysis of the deposited data

How the results depend on the processing

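No paired analysis was possible because each group has 1 array. The 27 member differences (9 genes, 3 comparisons) moved by less than the typical spread between probe sets of 1 gene (median SD of 0.20 in GO minus control, 0.33 in rGO minus control and 0.26 in GO minus rGO) after a further quantile normalisation and after centring each array on its median. With the brightest probe set per gene 25 of 27 did so, the exceptions being mig-1 at 0.57 for GO minus control and 0.12 for rGO minus control. Without probe sets that share probes only 12 differences could be computed, and cwn-1, cwn-2, mom-2, lin-44 and mig-1 had no value. There the count of members at least 2-fold higher was 1 for GO minus rGO, against 3, and 1 other pathway gene was higher for rGO minus control, against 3; both follow from fewer genes measured. For GO minus control that setting counted cfz-2 and lin-17. With no floor the member median for GO minus rGO was 0.40, against 0.81 over the 7 above the floor. With the floor at the 75th percentile cwn-2 dropped out, and other pathway genes higher numbered 2 in GO minus control, 1 in rGO minus control and 1 in GO minus rGO, against 4, 3 and 2. For GO minus rGO that last count was 7 with the brightest probe set and 1 after either scaling, where ceh-22 fell under 2-fold. At a 1.5-fold rule 5 of 7 members were higher for GO minus control, and other pathway genes higher numbered 14 (GO minus control), 7 (rGO minus control) and 9 (GO minus rGO), of 41, 37 and 41; of all genes 17.8%, 19.1% and 10.6% were higher by that rule. No count or difference changed direction in these alternatives for a member past 2-fold. Values below 6.24 were not above background, which limits egl-20 and lin-44.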

Other observations

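In the RefSeq gene order, the genes next to cwn-1 (srd-3 and K10B4.1) and cfz-2 (srj-9 and slc-28.2) had GO minus control differences of 0.00, 0.00, 0.20 and 0.00, with 3 of these 4 below 6.24 on every array. These neighbours were looked up after the member values had been seen. Beside cwn-2 the phospholipase-related ipla-7 had log2 values of 9.68 on the GO array, 9.89 on the rGO array and 8.33 on the control array. It was higher than control on both exposed arrays, by 1.35 for GO and 1.56 for rGO, while cwn-2 was higher by 1.89 and 0.40. Beside mom-5 the tetraspanin gene tsp-7 had log2 values of 8.73 on the GO array, 7.36 on the rGO array and 7.07 on the control array, whereas mom-5 itself differed by 0.12 units at most.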
